A study of Mus musculus with 16 samples.

Results

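The interferon-induced genes are 36 genes, taken by name as rows of a mouse expression table of 23284 genes, and all 36 are in the table. They were chosen by name with their FPKM in the numbered iPSC groups in view, so their differences between numbers, and between EBs and iPSCs, are given below as a description with no test. The measurements are polyA RNA sequencing of 16 libraries, 12 of induced pluripotent stem cells (iPSCs) and 4 of embryoid bodies (EBs), clumps of cells left to differentiate after hanging-drop culture. The iPSCs were made from mouse embryonic fibroblasts, were grown over feeder cells, and all 16 libraries carry the genotype ColA1_miR203; Rosa26rtTA, in which doxycycline switches on the microRNA miR-203. All 16 are also listed with the same doxycycline treatment of 5 to 7 days. A library title starts with KI or KIX, has D or V next, and ends in EB or in the number 1, 4 or 10. What these codes stand for is not explained in the labels, so they are used here as codes and no treatment, day or line is assigned to them. With KI and KIX taken at 3 numbers and as EBs there are 8 groups, and in every group 1 library is D and 1 is V. The labels do not say that these came from separate cultures. The p-values of KIX against KI, and of its changes, measure the spread between D and V libraries, which may be technical. In the tests between numbers, of EBs against iPSCs and of D against V, KI and KIX libraries are the replicates. The p-values there measure a spread that holds the difference between the prefixes. Neither the age of the embryos nor how many clones were used is given in the sources used here.

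Interferons are secreted proteins that cells release when they sense viral nucleic acid. Type I interferons, among them interferon beta (Ifnb1), bind the receptor made of Ifnar1 and Ifnar2, whose kinases activate transcription factors, Stat2 among them. A complex of these with Irf9 binds the interferon-stimulated response element (ISRE) and switches on the genes described here. Mouse pluripotent stem cells are known for a weak interferon response compared with fibroblasts, the cell type commonly used as feeders.

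The 36 genes lie on 14 chromosomes, and 18 of them fall into 8 clusters in which neighbouring members are under 200 kb apart. On the GRCm38 build with GENCODE M21 gene models, Ifit2, Ifit3 and Ifit1 lie on chromosome 19 between 34550694 and 34650009, and Cxcl10 and Cxcl11 on chromosome 5 between 92346638 and 92365485. Rsad2 and Cmpk2 lie on chromosome 12 between 26442746 and 26479837. The 3 genes Parp14, Dtx3l and Parp9 lie on chromosome 16 between 35832874 and 35972605.

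A promoter from RefSeq (build GRCm38.p6, 250 bases before the start of the gene and 50 after it) was found for 26 of the 36 genes. The ISRE core, read as GAAA, any 2 bases and GAAA again and searched on both strands, was present in a promoter of 16 of these 26 genes (61.5%). The share was 3.99% over 27025 genes, and 48.8% over 43 other interferon-induced genes, all with the same 300-base window. A match describes the letters of the window and is no measurement of binding. The 250 bases before the start are shown for 6 genes picked from the patterns below, and their matches do not stand for those of other genes with the same pattern. The 4 genes Ifit1, Isg15, Rsad2 and Cxcl10 had means over 4-fold lower at number 4 than at number 1, while Bst2 was lower at number 1 than at number 4 or in EBs and Xaf1 had the largest difference between KIX and KI of the 36 at number 4. They are Ifit1 at chr19:34640639-34640888 (plus strand), Isg15 at chr4:156200819-156201068 (minus strand) and Rsad2 at chr12:26456453-26456702 (minus strand). The others are Cxcl10 at chr5:92348890-92349139 (minus strand), Bst2 at chr8:71537473-71537722 (minus strand) and Xaf1 at chr11:72301379-72301628 (plus strand). Each is printed 5′ to 3′ on the strand of the gene, and capitals mark matches to the ISRE core on either strand.
Ifit1: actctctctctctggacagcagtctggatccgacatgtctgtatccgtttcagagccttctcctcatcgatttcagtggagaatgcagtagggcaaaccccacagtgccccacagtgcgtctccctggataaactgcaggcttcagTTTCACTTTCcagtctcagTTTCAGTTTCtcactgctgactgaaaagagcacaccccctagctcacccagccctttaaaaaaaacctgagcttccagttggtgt
Isg15: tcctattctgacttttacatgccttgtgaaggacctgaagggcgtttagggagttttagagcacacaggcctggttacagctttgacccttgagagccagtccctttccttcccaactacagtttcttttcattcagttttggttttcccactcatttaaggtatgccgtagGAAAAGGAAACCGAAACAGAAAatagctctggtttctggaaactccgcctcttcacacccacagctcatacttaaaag
Rsad2: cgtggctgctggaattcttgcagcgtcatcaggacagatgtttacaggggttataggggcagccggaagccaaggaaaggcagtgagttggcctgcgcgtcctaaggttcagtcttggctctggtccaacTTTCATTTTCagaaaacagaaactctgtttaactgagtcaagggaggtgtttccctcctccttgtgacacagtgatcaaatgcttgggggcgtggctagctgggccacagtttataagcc
Cxcl10: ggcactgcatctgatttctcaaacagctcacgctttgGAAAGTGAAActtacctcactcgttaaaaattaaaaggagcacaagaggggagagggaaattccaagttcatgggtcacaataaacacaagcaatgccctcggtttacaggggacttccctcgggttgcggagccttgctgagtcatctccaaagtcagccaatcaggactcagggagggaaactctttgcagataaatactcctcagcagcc
Bst2: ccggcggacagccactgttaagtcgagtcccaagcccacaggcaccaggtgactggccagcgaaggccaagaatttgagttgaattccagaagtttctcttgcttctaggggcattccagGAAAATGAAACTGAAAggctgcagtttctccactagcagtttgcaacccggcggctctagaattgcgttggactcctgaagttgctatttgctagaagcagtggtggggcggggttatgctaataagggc
Xaf1: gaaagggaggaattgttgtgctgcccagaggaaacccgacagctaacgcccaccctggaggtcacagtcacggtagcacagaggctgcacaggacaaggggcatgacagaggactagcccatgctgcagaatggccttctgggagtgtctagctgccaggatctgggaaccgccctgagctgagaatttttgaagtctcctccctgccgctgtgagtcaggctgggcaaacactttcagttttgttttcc
In Ifit1 both matches read on the opposite strand, and in Isg15 matches overlap in a run. Bst2 has a pair of overlapping matches, Rsad2 and Cxcl10 have 1 each, and Xaf1 has none in this window. Among genes not shown, Ifit2 and Cmpk2, also over 4-fold lower at number 4 than at number 1, had no match. Oas1a and Irf7 were both higher at number 4 than at number 1, and Oas1a had matches while Irf7 had none. Whether matches go with a pattern was not tested.

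Levels are given in FPKM, which is fragments scaled to the length of the transcript and the size of the library. The sequencing depth is unknown, so no counting interval can be given. The summed FPKM of all genes ranged from 612598 to 724350 per library. Mir203, the targeted gene, was listed at 0 in both KI libraries of number 1 and of number 4, and at 1870 and 1970 FPKM in the KIX libraries of number 1. It was listed at 2250 and 1730 in the KIX libraries of number 4 and at 0 in all 4 libraries of number 10. In EBs it was listed at 90.1 in KI V and 212 in KIX D and at 0 in the other two. Pluripotency genes (summed over Pou5f1, Nanog, Sox2, Zfp42, Dppa5a and Utf1) stood at 3160 to 4680 FPKM in iPSC libraries and 814 to 1580 in EBs. Fibroblast genes, a list of 10 led by collagens, summed to 1140 to 2570 FPKM in iPSC libraries and 24.1 to 489 in EBs, so RNA of fibroblast type was present beside RNA of pluripotent cells. In bulk RNA, fewer cells of a type and less RNA per cell cannot be told apart.

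All 36 interferon-induced genes had their highest mean at number 10. In all 36 the 4 libraries of number 10 lay above the 4 of number 1, and in 35, all but Xaf1, above the 4 of number 4. Number 4 lay mostly below number 1, and in 27 of 36 the 4 libraries of number 1 lay above the 4 of number 4. Over all genes, 18.4% were higher at number 10 than at number 1 without overlap, 12.5% higher at 10 than at 4 and 16.2% lower at 4 than at 1. Nothing is read from these shares, given how the members were chosen. Summed over the members, FPKM was 1030 to 1360 at number 1, 612 to 967 at number 4, 3150 to 5290 at number 10 and 515 to 744 in EBs.

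**Figure D1:**
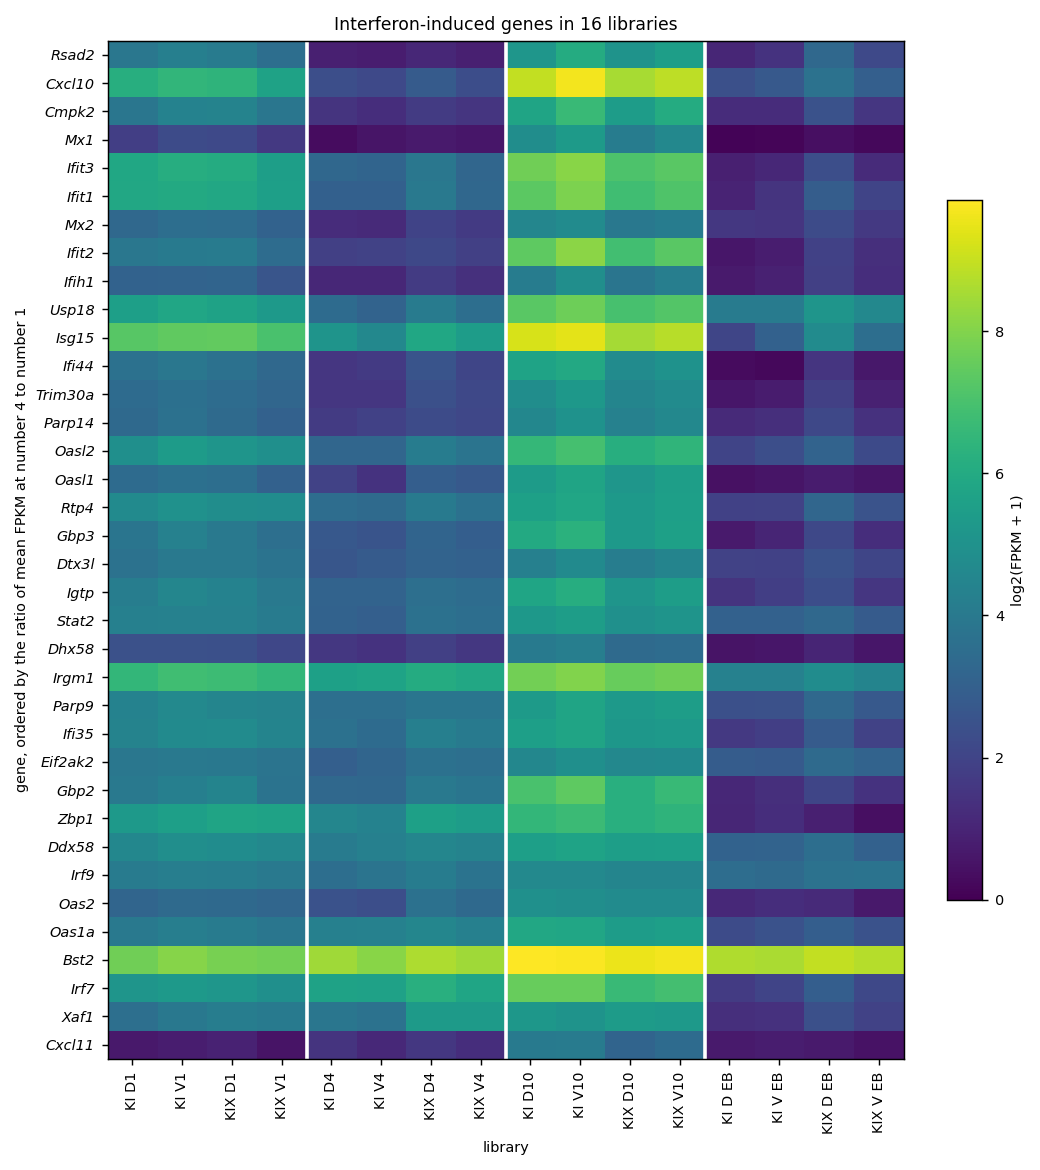
Levels of the 36 interferon-induced genes (rows) in 16 libraries (columns) as log2(FPKM + 1), by colour. White lines separate number 1, number 4, number 10 and EBs, and rows run from the gene with the lowest ratio of number 4 to number 1, Rsad2, to the highest, Cxcl11. The third block, number 10, is the brightest for every gene by its mean, and the EB block is the darkest for most genes but bright for Bst2.

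The IFIT proteins bind foreign RNA and block its translation. Ifit1 was at 58.4 and 61.5 FPKM in the KI libraries of number 1 (D, then V, here and below) and at 59.1 and 46.6 in the KIX ones, and at number 4 it was at 7.22, 7.18, 14.8 and 8.87 in the same order. At number 10 it was at 164, 236, 112 and 141, and in EBs at 0.962, 1.80, 6.51 and 3.06. The 4 stages did not overlap, in the order 10, 1, 4 and EB, and the means were 163 ± 52.8 at number 10 and 9.52 ± 3.62 at number 4 (SD, n = 4), a ratio of 17.1. Ifit3 had means of 59.2, 9.72, 194 and 1.83 FPKM at number 1, number 4, number 10 and in EBs. Ifit2, which in the mouse is needed to protect neurons from some viruses, was lower than both at number 1 (13.9) and close to both at number 10 (180), a 13.0-fold higher mean.

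Isg15 is a ubiquitin-like protein that is attached to others, and Usp18 removes it and restrains the receptor. Isg15 was at 155, 175, 176 and 128 FPKM at number 1, at 33.1, 23.5, 57.9 and 42.4 at number 4, at 614, 688, 363 and 441 at number 10, and at 3.21, 7.26, 26.2 and 10.9 in EBs. The iPSC stages did not overlap for Isg15, while the KIX D library of EBs lay above the KI V library of number 4. Usp18 had means of 47.9, 11.2, 160 and 22.5 FPKM, so its mean was higher in EBs than at number 4.

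Rsad2 (viperin), an enzyme that makes a chain-terminating nucleotide, and its neighbour Cmpk2, a nucleotide kinase that supplies its substrate, were among the genes furthest down at number 4. Rsad2 was at 13.9, 18.1, 16.1 and 10.8 FPKM at number 1 and at 0.833, 0.728, 1.16 and 0.816 at number 4, a 16.7-fold lower mean. It was at 34.7, 65.7, 32.2 and 45.0 at number 10 and at 1.06, 1.74, 9.01 and 3.48 in EBs. Its EB libraries thus overlapped with those of number 4 and were otherwise higher. Cmpk2 had means of 16.8, 1.84, 65.6 and 2.33 FPKM.

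Cxcl10 and Cxcl11 are chemokines that draw T cells through the receptor Cxcr3. Cxcl10 was at 72.1, 88.6, 83.4 and 50.1 FPKM at number 1 and at 4.18, 3.54, 6.15 and 4.08 at number 4. At number 10 it was at 498, 821, 376 and 467, a mean 120-fold above that of number 4, and in EBs at 4.24, 5.77, 12.2 and 6.96. Cxcl11 went the other way between numbers 1 and 4, with 0.602, 0.738, 0.919 and 0.440 FPKM at number 1. The number 4 libraries, at 1.80, 1.21, 2.02 and 1.46, lay above all of these. At number 10 Cxcl11 was at 15.7, 16.3, 7.97 and 9.75, so the neighbouring chemokine genes differed between numbers 1 and 4 and were both highest at number 10.

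The Mx proteins are dynamin-like GTPases that trap viral particles. Mx1 had means of 3.01, 0.469 and 27.0 FPKM at numbers 1, 4 and 10 and was under 1 FPKM in every EB library. Mx2 had means of 9.53, 1.93, 19.7 and 2.45 at the 3 numbers and in EBs. Many laboratory strains carry defective Mx genes, and the labels give no strain.

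Among the RNA sensors, Ifih1 (MDA5) and Ddx58 (RIG-I) differed in how far below number 1 they were at number 4. Ifih1 was at 7.48, 7.77, 7.97 and 5.07 FPKM at number 1 and at 1.16, 1.14, 2.28 and 1.56 at number 4, a 4.60-fold lower mean. Ddx58 had means of 25.2 ± 2.68 and 19.2 ± 2.61 (SD, n = 4), 1.32-fold lower, with no overlap of the libraries. Dhx58 (LGP2), which modulates both, had means of 4.09, 2.11, 13.2 and 0.630 FPKM. Zbp1, which senses Z-form nucleic acid and can trigger cell death, was at 46.6 ± 6.22 FPKM at number 1, 32.5 ± 14.0 at number 4, 87.6 ± 12.7 at number 10 and 0.921 ± 0.476 in EBs.

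The 2'-5' oligoadenylate synthetases make the second messenger of the RNase L pathway. Oas1a had means of 15.5, 19.5, 51.0 and 4.96 FPKM, and Oas2 8.86, 7.48, 27.4 and 1.12. By prefix, Oas2 had means of 8.88 at number 1 and 4.38 at number 4 in KI, and of 8.84 and 10.6 in KIX. The related Oasl1, which in the mouse restrains translation of Irf7, had means of 9.87, 4.23, 43.6 and 0.490, and Oasl2 33.4, 11.6, 93.9 and 4.67. Eif2ak2 (PKR), a kinase that halts translation on sensing double-stranded RNA, had means of 14.0, 9.49, 24.7 and 7.38. It was within 2-fold at numbers 1 and 4 and over 2-fold higher at number 10 than at number 4. Near-identical copies exist in the Oas, Gbp and Trim30 families, and how the estimate split shared reads is not stated.

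The transcription factors Irf9, Stat2 and Irf7 differed less between numbers 1 and 4 than the genes furthest down at number 4. Irf9 had means of 16.4 ± 1.25, 13.2 ± 2.44, 22.5 ± 1.29 and 11.2 ± 1.34 FPKM and Stat2 18.3 ± 1.48, 9.30 ± 2.42, 35.9 ± 6.01 and 7.42 ± 1.23 at numbers 1, 4 and 10 and in EBs (SD, n = 4). Irf7, which amplifies the induction of interferon alpha genes, was at 34.5, 38.2, 34.8 and 29.3 FPKM at number 1 and at 50.6, 49.1, 73.0 and 54.5 at number 4. At number 10 it was at 187, 190, 102 and 120, and in EBs at 2.26, 3.06, 6.60 and 3.35. Irf7 was therefore higher at number 4 than at number 1 and higher again at number 10, without overlap, and was 21.0-fold lower in EBs than over the iPSC libraries by its mean.

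Of the cell-autonomous GTPases that attack vacuoles around pathogens, Irgm1 had means of 101, 55.9, 216 and 21.4 FPKM and Igtp 18.3, 9.19, 50.3 and 2.57. Gbp2 had means of 16.5, 11.5, 118 and 1.88, a 10.3-fold step from number 4 to number 10, and Gbp3 14.5, 6.27, 56.2 and 1.64. The ADP-ribosyltransferases Parp9 and Parp14 and the ubiquitin ligase Dtx3l, the partner of Parp9, had ratios of number 10 to number 4 of 3.60, 8.01 and 3.07. Of the others, Ifi44 had means of 11.6, 3.04, 42.2 and 0.700, Trim30a 10.0, 2.89, 27.9 and 1.17, Rtp4 27.4, 11.8, 46.7 and 4.71, and Ifi35 23.1, 13.8, 43.1 and 3.41.

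Bst2 (tetherin), a membrane protein that holds budding virus at the cell surface, had another pattern. It was at 209, 265, 226 and 217 FPKM at number 1, at 352, 275, 396 and 352 at number 4, at 921, 878, 745 and 806 at number 10 and at 409, 388, 492 and 435 in EBs. The libraries of number 4 and of EBs each lay above all 4 of number 1, and those of number 10 above all others. Xaf1, a zinc-finger protein tied to cell death, was at 11.0, 14.3, 17.0 and 15.8 FPKM at number 1 and at 13.5, 12.2, 40.4 and 40.0 at number 4. At number 10 it was at 35.7, 32.4, 41.1 and 37.9, so its KIX libraries were as high at number 4 as at number 10 and its KI libraries were not.

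**Figure D2:**
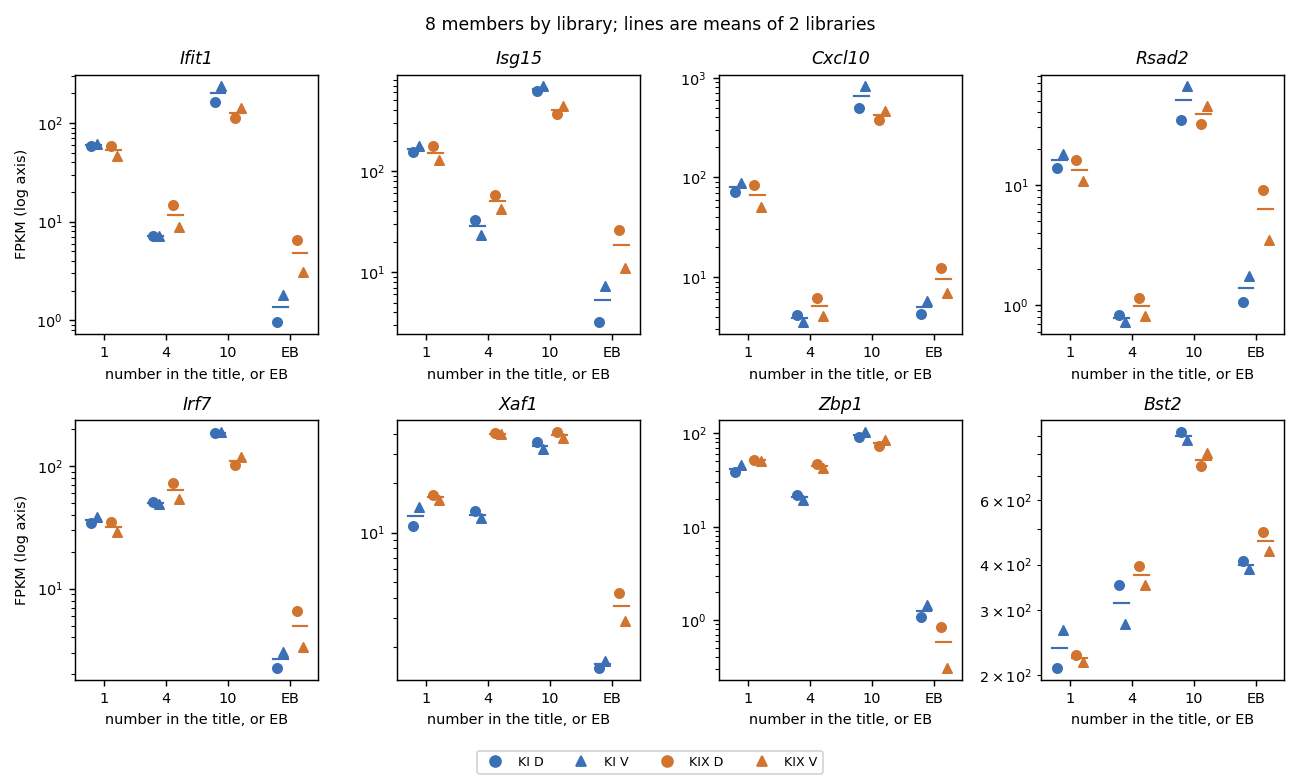
FPKM on a log axis of 8 interferon-induced genes by number or EB. Each symbol is 1 library (blue KI, orange KIX, circle D, triangle V) and each line the mean of 2 libraries. Ifit1, Isg15, Cxcl10 and Rsad2 dip at number 4, Irf7 and Bst2 do not, Xaf1 at number 4 is at 40.4 and 40.0 in KIX against 13.5 and 12.2 in KI, and Bst2 lies between 388 and 492 in EBs.

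By fold, 11 members had a mean over 4-fold lower at number 4 than at number 1, 8 were 2- to 4-fold lower, 16 were within 2-fold and 1, Cxcl11, was over 2-fold higher. From number 4 to number 10, 14 had a mean over 10-fold higher. Between numbers 1 and 10 that was so of Ifit2 and Cxcl11. Across the 12 iPSC libraries, the members' levels as log2(FPKM + 1) followed the mean over the members with Pearson's r of 0.931 to 0.998 in 31 of 36. The others were Xaf1 (0.495), Irf7 (0.721), Bst2 (0.742), Cxcl11 (0.801) and Oas1a (0.816). Outside all lists, the genes most like the members' mean over these 12 libraries were Parp10 (r = 0.995), Mndal (0.99), Mnda (0.99), Ifi202b (0.988), Tor1aip1 (0.987), Trim14 (0.986), Tmem106a (0.985) and Lipg (0.978). These libraries share 3 numbers, and Mnda, Mndal and Ifi202b are related genes, so how shared reads were split may affect their values.

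Genes of the same pathway outside the 36 were tested with limma on log2(FPKM + 1), with Benjamini-Hochberg adjustment over all genes tested, and changes are on that scale. A call is an adjusted p under 0.05. The lists were chosen with earlier results of these data known, so calls in them are no independent support for the pattern of the 36. Of 53 tested genes in a list of other interferon-induced genes, 48 rose and 0 fell from number 4 to number 10, where 7.16% of all genes rose. Between numbers 1 and 10, 50 rose and 2 fell, where 13.5% of all genes rose, and between numbers 1 and 4, 1 rose and 19 fell, where 5.5% of all genes fell. The largest rises from number 4 to number 10 were those of Ifit3b (listed as I830012O16Rik), a close copy of Ifit3, by 4.53 ± 0.24 (SE, adjusted p = 2.58e-05), and of Iigp1, a GTPase, by 3.96 ± 0.24 (adjusted p = 4.29e-05). Between numbers 1 and 10 the largest was that of Cxcl9, a chemokine that acts on the same receptor as Cxcl10, by 2.65 ± 0.25 (adjusted p = 0.000528). The 2 that fell were Ifitm1, a membrane protein that hinders viral entry, by 0.84 (adjusted p = 0.0384), and Ifi30, a lysosomal reductase, by 0.59 (adjusted p = 0.04). With the fibroblast score (the average log2(FPKM + 1) of the 10 fibroblast genes) as a covariate, 8 instead of 20 of these genes were called from number 1 to number 4, and with prefix by number means 40 were. Without KI V1 or KIX D1, 13 were. The score was 6.39 to 6.96 at number 1 and 5.79 to 6.03 at number 4, without overlap. It cannot be fully separated from the number there.

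Of 18 interferon genes, Ifnb1 alone reached 1 FPKM in any library. Ifnb1 was at 1.50, 1.38, 1.82 and 0.570 FPKM at number 1, listed at 0 in all 4 libraries of number 4, and at 0.183, 1.32, 0.120 and 0.581 at number 10. In EBs it was at 0.224, 0, 0.151 and 0. Ifnb1 was lower at number 4 than at number 1 (limma, adjusted p = 0.00581) and also lower at number 10 than at number 1 (adjusted p = 0.023), while the 36 genes were highest at number 10. Its rise from number 4 to number 10 missed the threshold (adjusted p = 0.0525). Ifng, the type II interferon, was listed at 0 in every library but KI V of EBs, where it was at 0.0399 FPKM.

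The receptor gene Ifnar1 did not pass the test from number 1 to number 4 (change of -0.03, limma, adjusted p = 0.828) and rose by 0.29 from number 4 to number 10 (adjusted p = 0.031), and Ifnar2 rose by 0.50 from number 1 to number 4 (adjusted p = 0.0442). Of the 15 tested sensors, adaptors and interferon regulatory factors, 5 rose and 0 fell from number 4 to number 10, led by Tlr3, an endosomal sensor of double-stranded RNA, by 2.70 ± 0.18 (SE, adjusted p = 7.48e-05). Irf3, which starts the induction of Ifnb1, had a change of 0.00 (adjusted p = 0.987) and Irf1 one of 0.27 (adjusted p = 0.166). Of the 10 tested negative regulators, 4 rose, among them Socs1, which blocks the receptor's kinases, by 1.23 ± 0.10 (adjusted p = 0.000189). Of the 10 tested genes induced by NF-kB, 3 rose from number 4 to number 10, the adhesion gene Vcam1 by 1.42 (adjusted p = 0.00692), Il6 by 1.33 (adjusted p = 0.0165) and Icam1 by 0.32 (adjusted p = 0.0411).

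Markers of other cell types were read beside these changes. The fibroblast score was 6.39 to 6.96 at number 1, 5.79 to 6.03 at number 4 and 6.18 to 6.89 at number 10, so it too was lowest at number 4. In sums of FPKM this was 1700 to 2530, 1140 to 1320 and 1470 to 2570, and 10, 9 and 9 of the 10 genes were over 1 FPKM in a library. From number 1 to number 4, 4 of the 10 fell and 0 rose, and from number 4 to number 10, 2 rose and 0 fell. Of 12 blood and immune genes, the sums were 49.0 to 73.5, 24.7 to 32.3 and 28.6 to 43.8 FPKM, led by Lyz2 and Cd68, the pan-leukocyte gene Ptprc was at most 0.541, and Siglech was listed at 0 in all libraries of numbers 1 and 10. From number 4 to number 10, 2 of the 6 tested rose. The part of these cells in the levels of the interferon-induced genes was not tested by separating them.

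**Figure D3:**
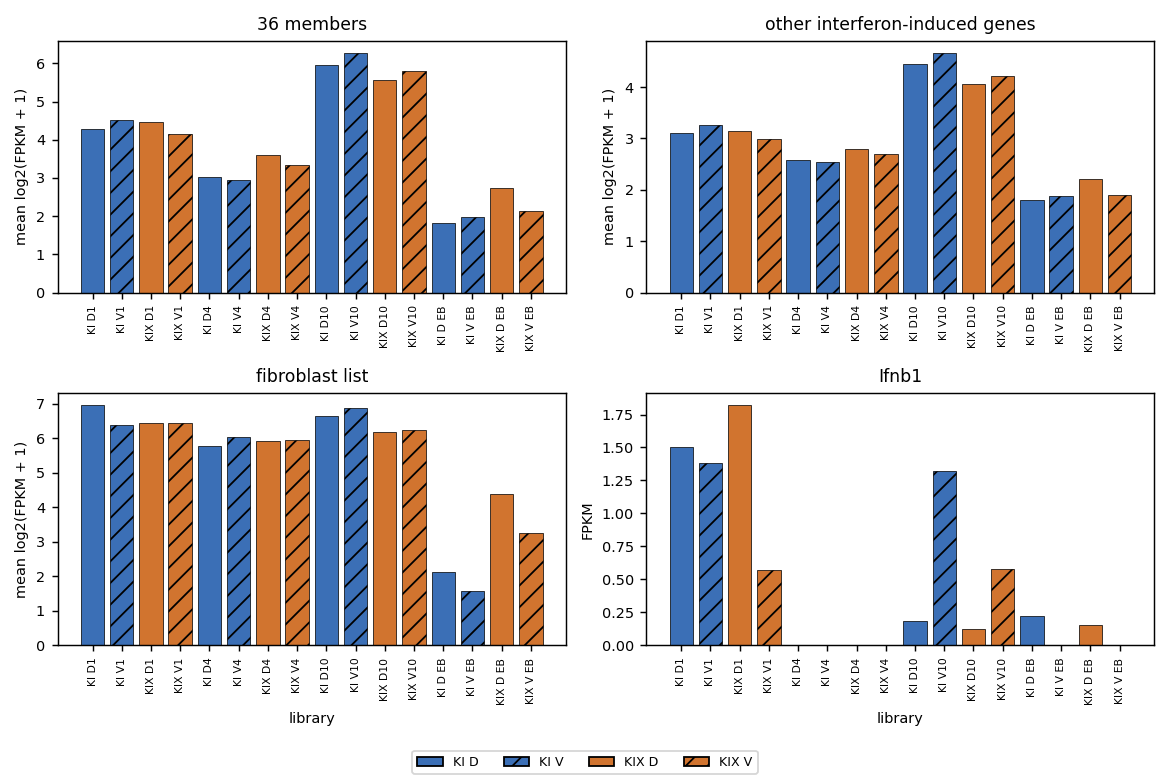
Bars give, per library, the mean of log2(FPKM + 1) over the 36 members, over the other interferon-induced genes and over the fibroblast list, and the FPKM of Ifnb1 (bottom right). Blue is KI, orange KIX and hatching V. The members and the other interferon-induced genes are highest in the 4 number 10 libraries, the fibroblast list spans 5.79 to 6.96 over iPSC libraries, and Ifnb1 is highest in 3 number 1 libraries and has no bar at number 4.

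KIX was compared with KI at each number and in EBs, a contrast of 2 libraries with 2. The members moved together across libraries, also between the D and V libraries of a group. A count of members on one side is therefore not a count of independent observations. At number 1, 0 of the 36 genes passed limma's test (1 had an unadjusted p under 0.05), where 2.2% of all genes were called. The median difference was -0.13 on the log2(FPKM + 1) scale, against 0 over all genes, with 31 of 36 below 0. The SE of a member's difference ranged from 0.11 to 0.38.

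At number 4 all 36 differences were above 0, with a median of 0.40 against 0.02 over all genes. In 27 of 36 both KIX libraries lay above both KI libraries, where 33.2% of all genes did. Within KIX alone, all 36 were higher in D than in V here, with a median of 0.25, so these counts rest on few libraries. The test called 6 of 36 as higher in KIX, which is not far above the share over all genes (11.3%). They were Xaf1, Oasl1, Oas2, Zbp1, Stat2 and Eif2ak2. Xaf1 was higher by 1.58 ± 0.14 (SE, adjusted p = 5.71e-05), Oasl1 (2.83 and 1.75 FPKM in KI against 6.68 and 5.67 in KIX) by 1.14 ± 0.21 (adjusted p = 0.00439) and Oas2 (4.60 and 4.17 against 11.7 and 9.43) by 1.10 ± 0.15 (adjusted p = 0.000745). Zbp1, at 21.7 and 19.4 FPKM in KI and 46.8 and 42.1 in KIX, was higher by 1.08 ± 0.15 (adjusted p = 0.00106). The genes furthest down at number 4, such as Rsad2 and Cxcl10, were not called. Without KIX D or KIX V of EBs, which enter through the shared spread, 11 were called. Of the 53 tested other interferon-induced genes, 5 were higher and 1, Ifitm1 (-0.95 ± 0.14, adjusted p = 0.00108), lower. Of the 10 fibroblast genes 0 were called, with a median of 0.04. Of the 5 endothelial genes tested, 3 were higher in KIX and 0 lower, Tie1 by 1.73, Pecam1 by 0.39 and Tek by 0.33, and of the 6 blood and immune genes tested 2 were higher and 0 lower, Cd3e by 0.93 and Cd68 by 0.43. Some of these levels were low: Tie1 had means of 3.04 FPKM in KIX and 0.208 in KI, and Cd3e 2.14 and 0.648. The endothelial genes Cdh5 (0.101 and 0.0627) and Kdr (0.259 and 0.173) were not called. Ptprc did not exceed 1 FPKM in any library of number 4. Whether endothelial or blood cells were present, and their part in the difference, was not tested.

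At number 10 the differences lay on the other side, with 35 of 36 below 0 and a median of -0.42 against 0 over all genes. In 26 of 36 both KIX libraries lay below both KI libraries, where 34% of all genes did. Within KI alone, V lay above D for 32 of 36 here, with a median D minus V of -0.33. The test called 6 of 36 as lower in KIX, which is near the share over all genes (14.6%), so nothing is read from that count. Cxcl11 was lower by 0.79 ± 0.16 (SE, adjusted p = 0.00867), Dhx58 by 0.68 ± 0.15 (adjusted p = 0.00998) and Ifi44 (51.7 and 60.0 FPKM in KI against 25.6 and 31.6 in KIX) by 0.95 ± 0.26 (adjusted p = 0.0239). The others were Irf7, Gbp2 and Mx1. Of the 53 other interferon-induced genes, 26 were lower in KIX and 0 higher, and of the 10 NF-kB-induced genes 9 were lower and 0 higher. The fibroblast genes were lower too, with 1 of 10 called, a median of -0.63 and sums of 2200 and 2570 FPKM in KI against 1470 and 1570 in KIX. Of the 6 blood and immune genes tested, 2 were lower and 1 higher, and of the 5 endothelial genes 1 was higher and 0 lower. With the fibroblast score as a covariate 2 members were called, and calls over all genes went from 3414 to 2218. The score itself was 6.66 and 6.89 in KI against 6.18 and 6.24 in KIX, so it cannot be fully separated from the prefix here. With a pseudocount of 0.1 or 0.01 in place of 1 there were 0 members called, and without the filter on low levels 3. Leaving out KI V10 or KIX D10 also left 0, and leaving out KIX D or KIX V of EBs gave 11.

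In EBs 12 of the 36 were higher in KIX and 1, Zbp1, was lower, where 12.4% of all genes were higher and 15% lower. The largest differences were those of Isg15, by 1.61 ± 0.38 (SE, adjusted p = 0.0107), Rsad2, by 1.49 ± 0.38 (adjusted p = 0.0143), and Ifit1, by 1.24 ± 0.31 (adjusted p = 0.0132). Zbp1, at 1.09 and 1.44 FPKM in KI and 0.846 and 0.310 in KIX, was lower by 0.54 ± 0.15 (adjusted p = 0.025). The levels are low: Ifi44 was at 0.222 and 0.164 FPKM in KI and at 1.86 and 0.552 in KIX. Of the 10 fibroblast genes, 7 were higher in KIX and 0 lower, with a median of 2.22 and sums of 24.1 and 47.0 FPKM in KI against 160 and 489 in KIX. Of the 6 pluripotency genes, 6 were lower in KIX, with a median of -0.68, and 4 of the 5 endothelial genes and 3 of the 6 blood and immune genes tested were higher. With the fibroblast score as a covariate 0 of the 36 were called, and Eif2ak2 (-0.02) and Ifi44 (-0.13) changed sign. Over all genes the calls went from 3796 to 656 with this covariate. The score itself differed by prefix in EBs, at 2.13 and 1.56 in KI against 4.40 and 3.24 in KIX, so it cannot be fully separated from the prefix there. Leaving out a library moved the count of 13 to 4 without KIX D, 3 without KI D, 5 without KI V and 23 without KIX V.

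**Figure D4:**
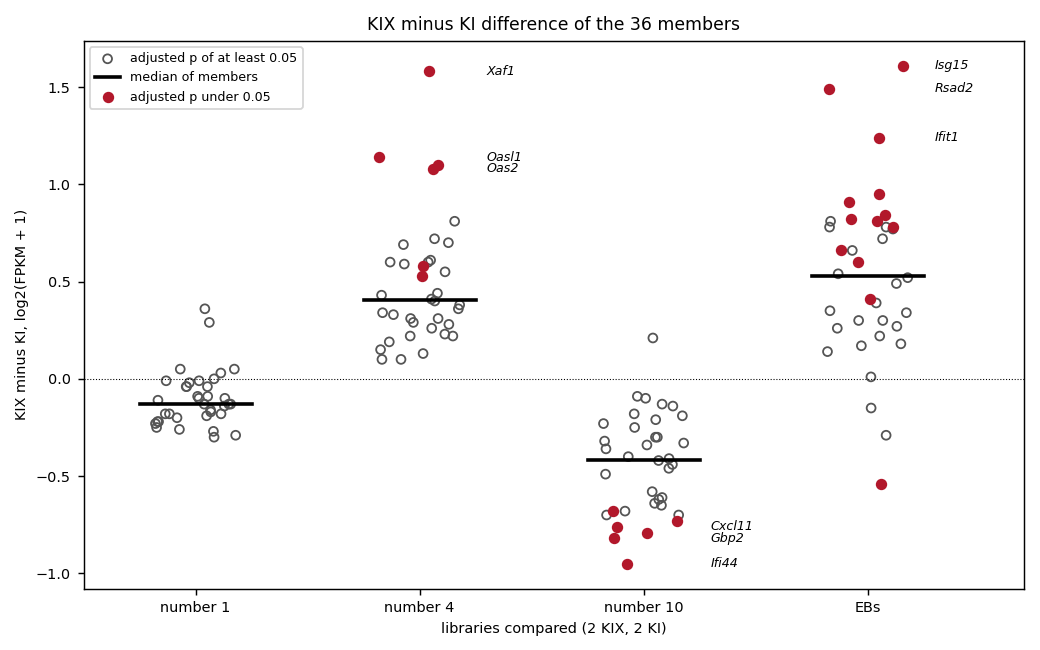
Difference between KIX and KI in log2(FPKM + 1) for each of the 36 genes (points) at number 1, number 4, number 10 and in EBs, 2 libraries against 2. Filled points have an adjusted p under 0.05, the 3 largest of these are named, and bars are medians. The median lies at -0.13, 0.40 and -0.42 at numbers 1, 4 and 10, and Xaf1 at number 4 and Isg15 in EBs lie highest.

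The change of the KIX minus KI difference was tested directly. From number 1 to number 4 it rose for 3 of 36, Oasl1 by 1.38 ± 0.30 (SE, limma, adjusted p = 0.0292), Xaf1 by 1.21 ± 0.20 (adjusted p = 0.0114) and Oas2 by 1.10 ± 0.21 (adjusted p = 0.0196), where 2.53% of all genes rose. From number 4 to number 10 it fell for 17 of 36 and rose for 0, where 17.1% of all genes fell. The largest falls were those of Ifi44, by 1.63 ± 0.36 (adjusted p = 0.0095), Gbp2, by 1.42 ± 0.35 (adjusted p = 0.0145), and Zbp1, by 1.38 ± 0.22 (adjusted p = 0.00215). From number 10 to EBs it rose for 21 of 36, where 19.5% of all genes rose, most for Isg15, by 2.31 ± 0.54 (adjusted p = 0.00755), and Ifit1, by 1.88 ± 0.44 (adjusted p = 0.00728). Successive changes share the libraries of number 4 or of number 10. Other lists moved as well. From number 4 to number 10 the difference fell for 7 of 10 NF-kB-induced, 1 of 10 fibroblast, 2 of 6 blood and immune and 1 of 5 endothelial genes. From number 10 to EBs it rose for 9 of 10 NF-kB-induced, 8 of 10 fibroblast, 4 of 6 blood and immune and 3 of 5 endothelial genes, and fell for 5 of 6 pluripotency genes. With the fibroblast score as a covariate the counts were 10 from number 4 to number 10 and 0 from number 10 to EBs, where calls over all genes went from 5442 to 764. The score itself differed by prefix at number 10 and in EBs, so it cannot be fully separated from these changes. A pseudocount of 0.1 gave 11 members from number 4 to number 10. Leaving out a library moved the first count to 0 without KIX V1 or KIX D4, 1 without KI V1 and 6 without either KIX library of EBs. It moved the count of 17 to 7 without KIX D4, 8 without KIX D10, 9 without KI V10 and 11 without KI D4, and the count of 21 to 8 without KIX D10, 10 without KIX D of EBs and 11 without KI V10 or KI D of EBs.

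Nearly all of these transcripts were lower in EBs than in iPSCs. The iPSC levels were in view when the genes were chosen, among them number 10, where these genes are high, so the choice favours lower levels in EBs and the differences are a description. On the log2(FPKM + 1) scale EBs lay below the mean of the iPSC groups for 35 of 36, with a median difference of -2.28 against 0.02 over all genes. The limma threshold was passed by these 35, where 38.1% of all genes were lower and 40.8% higher, and nothing is read from that count. In 20 of 36 every EB library lay below all 12 iPSC libraries, where 27.5% of all genes did. The difference was -4.76 for Zbp1, -4.24 for Ifit3, -3.86 for Irf7 and -3.82 for Isg15. It was smallest for Irf9 (-0.56) and Bst2 (0.09). EBs were also set against number 4 alone, a comparison added after the levels were seen. There 24 were past the threshold as lower, where 35.2% of all genes were. Above number 4 lay 6, Rsad2 by 1.09, Usp18 by 0.92, Cxcl10 by 0.53, Bst2 by 0.33, Mx2 by 0.24 and Cmpk2 by 0.14. Of these, Rsad2, Usp18 and Bst2 were past the threshold as higher, and nothing is read from either count. The fibroblast genes fell in the comparison of EBs with all iPSCs, 10 of 10, with a median of -3.47. With the fibroblast score as a covariate 15 of the 36 were past the threshold, and Rsad2 (1.18) and Usp18 (0.45) changed sign. The score was 5.79 to 6.96 in iPSC libraries and 1.56 to 4.40 in EBs, without overlap. It cannot be fully separated from the comparison, so nothing is read from that fit.

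Pathway genes outside the 36 were lower in EBs as well, 47 of 53 other interferon-induced genes against 2 that were higher, Ifi30 by 3.37 ± 0.13 (SE, limma, adjusted p = 3.97e-09) among them. Ifi30 was at 37.2 to 75.6 FPKM in iPSC libraries and 512 to 605 in EBs. Irf1 fell by 1.11 (adjusted p = 1.24e-06) and Ifnar2 by 0.30 (adjusted p = 0.0436). The receptor gene Ifnar1 rose by 0.33 (adjusted p = 0.000206) and Irf3 by 0.34 (adjusted p = 0.000145). Of 15 sensors, adaptors and regulatory factors 3 rose and 9 fell, with the kinase Ikbke down by 2.41 and the DNA-sensing adaptor Tmem173 (STING) down by 2.40 (adjusted p = 8.54e-08 and 6.17e-08).

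The letters D and V gave no calls for the 36 genes, either in iPSCs or in EBs (limma, 0 of 36 called and 0 with an unadjusted p under 0.05 in each), where 0.0306% and 0.0144% of all genes were called. In these tests the prefix pairing was not used and the difference between KI and KIX was in the spread, so they could miss a difference between D and V. Within a prefix, though, the members moved together from D to V. In KIX, D lay above V for 36 of 36 at number 1, 36 at number 4 and 35 in EBs, and V above D for 33 at number 10. In KI, V lay above D for 35 of 36 at number 1, 32 at number 10 and 29 in EBs, and D above V for 24 at number 4. Over all genes D lay above V for 44.1% to 51.3% in these 8 pairs. The median of D minus V on the log2(FPKM + 1) scale was -0.26 in KI and 0.31 in KIX at number 1, and 0.25 in KIX at number 4, where the 36 genes ranged from 0.01 to 0.68. Each pair is 1 library against 1, so these are descriptions of libraries with no test. The fibroblast score did not always move with them: KIX D and V stood at 6.46 and 6.44 at number 1 and at 5.93 and 5.95 at number 4, while at number 1 in KI the score was higher in D (6.96) than in V (6.39) and the interferon-induced genes were lower. In the KIX libraries of EBs both were higher in D, with scores of 4.40 and 3.24.

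**Figure D5:**
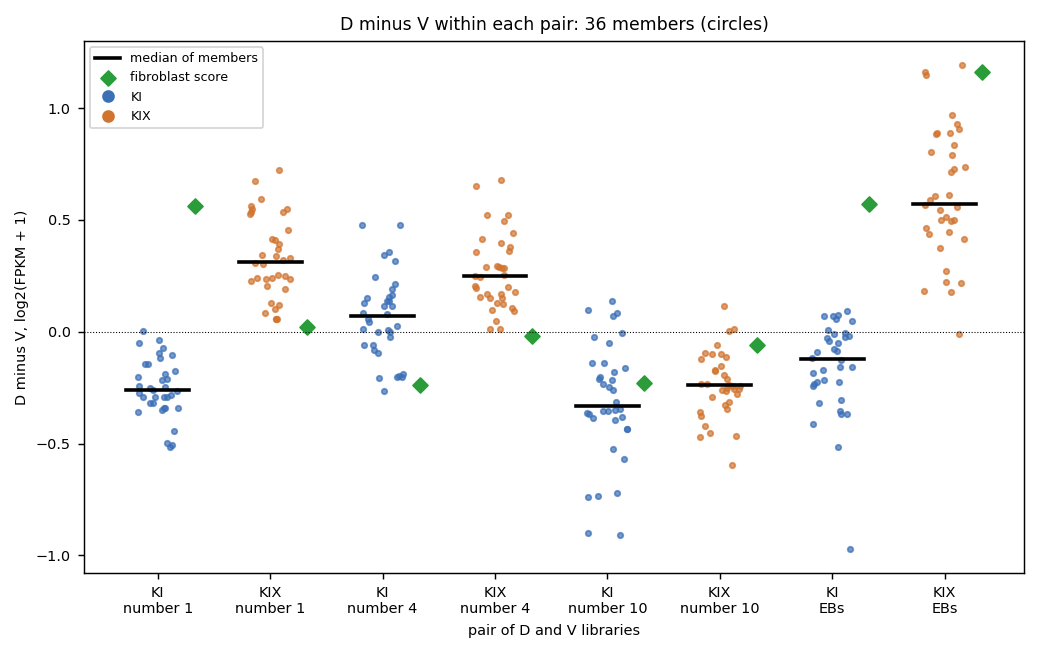
D minus V in log2(FPKM + 1) within each of the 8 pairs of libraries that share a prefix and a number or EB. Circles are the 36 genes, bars their medians and green diamonds the difference in fibroblast score. The circles of KIX lie above 0 at numbers 1 and 4 and those of KI at number 1 lie at or below 0, with the diamonds of KIX at numbers 1 and 4 near 0 (0.02 and -0.02).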

How the data were processed

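PolyA RNA of 16 mouse libraries was made into strand-marked (dUTP) libraries and sequenced on a HiSeq2500, per the labels' protocols. Per the submitters' processing notes, Cufflinks 2.2.1, TopHat2 2.0.10, SAMtools 0.1.19, Bowtie 1.0.0 and FastQC were used on the build GRCm38 (mm10), with settings and annotation version not given in the sources used here. Expression was deposited by the authors as FPKM. As these are shares of a library, a rise of abundant transcripts pulls down the others, and a value of 0 may be an estimate that failed. Only 54.7% of 44260 low values (4024 genes) were within 0.1 of a multiple of the smallest step, so reads could not be recovered and no count model was used.

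The test was limma 3.58.1 under R 4.3.3 on log2(FPKM + 1), two-sided, with a trend and Benjamini-Hochberg adjustment at 0.05. Genes needed a level of 1 FPKM or more in 2 or more of the libraries fitted, which all 36 members reached. The scale understates changes of low genes. KIX against KI and its changes used 8 prefix by number means. EBs against iPSCs and D against V in EBs used 8 letter by number means, and comparisons within iPSCs used 6 such means over 12 libraries. The fits were tested on simulated data. The members and lists were chosen with earlier results of these data known. A test of the members in EBs against iPSCs was planned, but as their iPSC levels were in view it is given as a description. All members could be named. From each list up to 4 called genes with the largest change per comparison were named (or the 2 with the highest mean), always Ifnb1, Ifnar1, Ifnar2, Irf3, Irf1 and Mir203, and the 8 genes most like the members' mean. A gene that the rule also names is not reported here. Ifng, Ptprc, Siglech, Lyz2, Cd68 and the calls set against each other in Ifi30 and Ifitm1 were chosen after their values were seen. Older symbols were matched through RefSeq synonyms. Of 58 other interferon-induced genes, 56 were in the table. D and V libraries of 1 prefix deviated from their letter by number means together (r of 0.207 to 0.379), so the prefix pairs comparisons of D with V. KI and KIX libraries of 1 letter did not (r of -0.059 to 0.113).

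Alternatives were other pseudocounts, no filter, quantile normalization, no trend, a fibroblast covariate, a replicate block, other group means and leaving out each library.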

Additional observations from a re-analysis of the deposited data

Results flagged for a closer look

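In 7 of 144 sets of 4 libraries (36 genes at 4 stages) the highest or lowest library stood apart from the rest by more than Dixon's 95% criterion for 4 values, and chance gives about 1 in 20 sets. At number 4 it was Ifit3 at 13.8 FPKM in KIX D. In EBs it was Ifit3 at 4.09, Mx2 at 3.78, Dhx58 at 1.05 and Trim30a at 2.64 FPKM, all highest in KIX D. At number 1 it was Ifih1 at 5.07 and Dhx58 at 3.27 FPKM, both lowest in KIX V. The 7 of 144 sets are near the share that chance gives, so nothing is read from the count. Each set holds both KI and KIX libraries and the members moved together, so the sets are not independent.

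The KIX minus KI difference differed between stages by limma's test of the change. From number 1 to number 4 it rose for 3 members, Oasl1 (1.38), Xaf1 (1.21) and Oas2 (1.1), in log2(FPKM + 1), and for 2.53% of all genes. From number 4 to number 10 it fell for 17 of 36 and for 17.1% of all genes. The largest changes were in Ifi44 (-1.63), Gbp2 (-1.42), Zbp1 (-1.38), Oasl1 (-1.37), Xaf1 (-1.37) and Oas2 (-1.23). From number 10 to EBs it rose for 21 of 36 and for 19.5% of all genes, with the largest in Isg15 (2.31), Ifit1 (1.88), Rsad2 (1.81), Ifi44 (1.77), Ifit2 (1.6) and Ifit3 (1.51). Other lists moved in the last comparison too. The difference rose for 8 of 10 fibroblast genes, with a median of 2.83, for 9 of 10 NF-kB-induced genes, for Emr1 (1.24), Csf1r (1.24), Lyz2 (1.93) and Fcgr1 (0.90) of 6 blood and immune genes, and for Cdh5 (1.09), Kdr (1.39) and Tie1 (1.05) of 5 endothelial genes. It fell for 5 of 6 pluripotency genes and for Cd3e (-0.67). Fibroblast genes entered a covariate fit, and the part of the other cell types was not tested.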

How the results depend on the processing

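Counts of genes called depended on the settings as follows, and the cause was not tested. With a pseudocount of 0.1 or 0.01 the members called for KIX against KI at number 10 were 0, not 6, and for the change from number 4 to 10 were 11, not 17. A pseudocount of 0.01 gave 1 gene of all for D against V in iPSCs and 10 in EBs. Without the filter these were 3 members at number 10 and 6 genes of all for D against V in EBs. With the fibroblast score as a covariate, KIX against KI gave 2218 genes of all and 2 members at number 10, and 656 and 0 in EBs. The change from number 4 to 10 then gave 10 members, and that from number 10 to EBs 764 genes and 0 members. EBs against iPSCs gave 15 members, number 4 against 1 gave 8 other interferon-induced genes, and number 10 against 4 gave 763 genes. The score did not overlap between KI and KIX at number 10 or in EBs, nor between EBs and iPSCs. It also did not overlap between number 4 and numbers 1 or 10. The covariate cannot be fully separated from these comparisons. The covariate reversed Eif2ak2 (-0.02) and Ifi44 (-0.13) for KIX against KI in EBs, Eif2ak2 (-0.04) and Trim30a (-0.12) for the change from number 10 to EBs, and Rsad2 (1.18) and Usp18 (0.45) for EBs against iPSCs. EBs against number 4 alone reversed Cmpk2 (0.14), Cxcl10 (0.53), Mx2 (0.24), Rsad2 (1.09) and Usp18 (0.92). With the replicate block, number 4 against 1 gave 1906 genes of all and D against V in EBs 9, and no other count was moved by over 1.5 times. Prefix by number means gave 5360, 5583 and 7059 genes of all for 4 against 1, 10 against 4 and 10 against 1, and 40 other interferon-induced genes for the first.

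Leaving out each library in turn gave these ranges of members called. They were 4 to 11 for KIX against KI at number 4, 0 to 11 at number 10, 3 to 23 in EBs, 0 to 6 for the change from number 1 to 4, 7 to 23 from 4 to 10, 8 to 29 from 10 to EBs and 35 to 35 for EBs against iPSCs. Over all genes they were 40 to 433 for KIX against KI at number 1, 1026 to 3649 at number 4, 697 to 4025 at number 10, 1946 to 4267 in EBs, 71 to 2385 for the change from 1 to 4 and 2007 to 4626 from 4 to 10. They were 318 to 1140 for number 4 against 1 (13 to 23 of the other interferon-induced genes), 614 to 1877 for 10 against 4, 1826 to 3991 for 10 against 1, and 2 to 6 and 2 to 40 for D against V in iPSCs and in EBs. Depth is unknown, so its limit on low genes cannot be given.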
